A study of Mus musculus with 6 samples.

Results

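The CpGs described here are the most deeply read ones of the series: they were chosen by their read depth, as CpGs read 10 or more times in all 6 libraries and 1000 or more times in at least 1 of them. This rule selected 471 CpGs, which is 0.0622% of the 757776 CpGs read 10 or more times in every library, out of 4175106 distinct CpGs listed. Joined where neighbors were at most 1000 bp apart, they formed 69 regions on 20 chromosomes, and 13 of these regions were a single CpG. A stretch of satellite DNA on chromosome 2 held 6 of the CpGs, in 2 regions, and the other 465 CpGs lay in 67 regions elsewhere. Read depth chose these CpGs, so depth and read share are given as a description and were not tested, whereas the methylation level was not part of the rule. Of the 471, 218 had 1000 or more reads in every library and 50 in only 1 library.

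DNA methylation was measured by reduced representation bisulfite sequencing (RRBS), which reads the fragments left by the enzyme MspI, a cutter at CCGG, after unmethylated cytosines have been converted. The CD8+ T cells came from lymph nodes of C57BL/6N mice aged 13 weeks, with 2 libraries per genotype and 3 genotypes: WT, hSTAT5B, and hSTAT5BN642H. STAT5B is a transcription factor activated by cytokine receptors, and N642H is a mutation of it found in human leukemia. The design asks whether mutant or nonmutated human STAT5B goes with altered DNA methylation. Both transgenes were carried on 1 allele and driven by the Vav1-hCD4 (HS21/45) vector, which is active across blood cells and not in T cells alone. A single selected mouse line stands for each transgene, and the hSTAT5BN642H mice were diseased. CD8+ cells were enriched with a magnetic kit, and no source used here says which library came from which mouse, so the spread between libraries may in part be technical. The libraries held 43291086 to 67007186 reads on CpGs. As a check of the labeled cell type, the mean level over the CpGs within 10 kb of Cd8a, which encodes a chain of the CD8 coreceptor, was 15.6% to 29.8% in 5 libraries and 57.6% in WT replicate 1, against 65.8% to 66.7% over all CpGs. Near Cd8b1, the gene of the other chain, it was 44.2% and 45.6% in WT, 23.9% and 29.4% in hSTAT5B, and 13.9% and 14.3% in hSTAT5BN642H. WT replicate 1 thus stood apart at Cd8a and both WT libraries at Cd8b1, where the genotypes did not overlap. The part of these differences in the results below was not tested, and values are given per library.

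Satellite DNA is a tandem repeat found in very many copies at and around centromeres, where it is packed into heterochromatin and is usually heavily methylated. In the mouse, the minor satellite underlies the centromere itself and carries the CENP-B box, the DNA motif bound by the centromere protein CENP-B, while the major satellite flanks the centromere. Genes for ribosomal RNA (rRNA) are another multicopy class: arrays of identical units in which some copies are transcribed and others are silent and methylated. A reference genome holds only a few representatives of such repeats. Reads from all copies in the cell can therefore pile up on them, and a level is then an average over copies. How reads with several equally good positions were placed is not given in the sources used here.

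The deepest CpG of the series lies in the satellite stretch, and the 300 bases around it are shown because they took the largest share of reads. They are from GRCm38 (RefSeq sequence of that build), chr2:98666241-98666540, plus strand, and capitals mark the CCGG cut by MspI.
satellite stretch: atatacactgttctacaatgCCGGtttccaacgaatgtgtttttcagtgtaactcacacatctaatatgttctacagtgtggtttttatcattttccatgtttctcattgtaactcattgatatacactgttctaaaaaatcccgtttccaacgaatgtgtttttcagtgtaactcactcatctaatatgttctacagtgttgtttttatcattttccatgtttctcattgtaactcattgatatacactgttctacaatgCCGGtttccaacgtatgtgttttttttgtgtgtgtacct
The sequence repeated itself every 121 bp, a shift at which 79.2% of bases were identical. The first and the last CCGG were 241 bp apart. MspI sites occurred at 4 places of the stretch, and the CpG of 3 of them, at positions 98662794, 98666262, and 98666503, was very deeply covered.

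The CENP-B box, searched on both strands by its 9 fixed letters, was found complete at 6 places of the stretch. It was present in 0.00628% of 8824592 windows of 300 bases in the genome, whereas CCGG was present in 14.2% of them. A pair of neighboring units is shown on the minus strand, at chr2:98666260-98666276 and chr2:98666381-98666397, with the matched fixed letters in capitals.
unit 98666260: aTTCGttggAaaCcGGc
unit 98666381: aTTCGttggAaaCGGGa
The first of them matched 8 of the 9 fixed letters and contained CCGG, and the second matched all 9 and had no CCGG. Both CpGs of the first unit, 98666262 and 98666272, were among the very deeply covered ones. Letters that match a motif describe the sequence, and binding was not measured.

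Very deeply covered CpGs took 10.6% to 15.2% of each library's reads, and most of this went to the satellite stretch. The share of all 471 CpGs was 12.6% and 12.5% in WT, 13.6% and 15.2% in hSTAT5B, and 10.6% and 14.6% in hSTAT5BN642H. Both hSTAT5B libraries were above both WT libraries, whereas hSTAT5BN642H replicate 1 lay below WT and replicate 2 between the hSTAT5B libraries. The satellite stretch alone took 10.6% and 10.4% in WT, 11.3% and 13.3% in hSTAT5B, and 9.02% and 12.5% in hSTAT5BN642H, and the 465 other CpGs together took 1.57% to 2.31%. The plot of read shares by sequence group shows the parts.

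**Figure D1:**
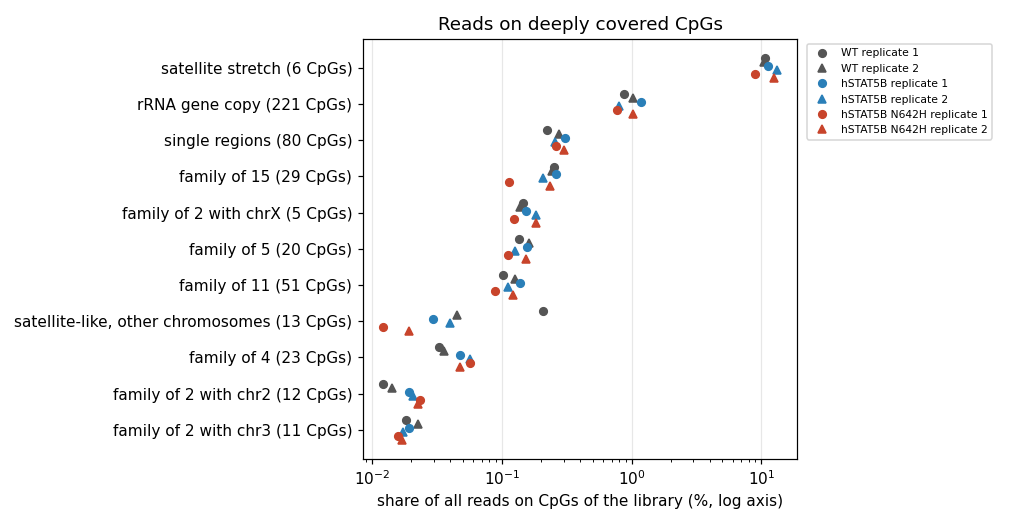
Share of each library's reads on CpGs (%, log x axis) that fell on each sequence group of very deeply covered CpGs (y axis), with 1 point per library. The satellite stretch makes up 9.02% to 13.3% of the reads in every library, and the rRNA gene copy, the next largest, 0.767% to 1.18%.

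The CpG at chr2:98666503, 44 bp outside the predicted gene Gm10800 (ENSMUSG00000075014.1), received 3794636 and 4503419 reads in WT, 4467387 and 4850009 in hSTAT5B, and 4593560 and 5157624 in hSTAT5BN642H. It was the deepest CpG in every library. Its share was lowest in hSTAT5BN642H replicate 1, at 6.86%, and highest in hSTAT5B replicate 2, at 11.2%. Next in depth were chr2:98666262 with 299898 to 570281 reads, chr2:98662794 with 301677 to 386139, and chr2:98666272 with 273792 to 524488. The last 2 satellite CpGs, chr2:98662629 and chr2:98662676, had only 305 to 1528 reads and met the rule through WT replicate 1 alone. The CpGs 98662629, 98662676, and 98662794 lie in an intron of the predicted gene Gm10801 (ENSMUSG00000075015.3).

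The 4 deepest satellite CpGs were almost fully methylated in all genotypes, and in hSTAT5BN642H they were lower by a small margin that both libraries showed. At chr2:98666503 the level was 98.39% and 98.54% in WT, 98.50% and 98.50% in hSTAT5B, and 98.23% and 98.22% in hSTAT5BN642H. Both hSTAT5BN642H libraries lay below the other 4, and the groups WT and hSTAT5B overlapped. The difference from WT was -0.242 percentage points, and the 95% Wilson intervals, which cover counting error only since no molecular identifiers are mentioned, were 98.22% to 98.24% and 98.21% to 98.23% in hSTAT5BN642H and began at 98.38% in WT replicate 1, the lower of the WT libraries. Relative to WT the log2 ratio of methylated to unmethylated reads differed by -0.22 with an SE of 0.67 (limma, n = 2 per genotype, adjusted p = 0.975).

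A larger difference was seen at the shallow satellite CpG chr2:98662629. Its level was 91.4% and 88.4% in WT, 89.0% and 87.9% in hSTAT5B, and 79.6% and 83.0% in hSTAT5BN642H. Again both hSTAT5BN642H libraries were the lowest, here by 8.63 percentage points on average against WT (limma, n = 2 per genotype, adjusted p = 0.843). This CpG had 441 and 312 reads in hSTAT5BN642H, so its intervals were wider, from 75.6% to 83.1% in replicate 1 and from 78.4% to 86.8% in replicate 2. At chr2:98662676, 47 bases along, hSTAT5BN642H was at 97.005% and 92.5%, on both sides of every other library. Neither of these shallow CpGs had a CCGG within 60 bp, whereas the other 4 satellite CpGs did. The levels at the 3 remaining CpGs repeated the pattern of the deepest. At chr2:98666272 they were 95.60% and 95.80% in WT, 95.84% and 95.76% in hSTAT5B, and 95.11% and 95.004% in hSTAT5BN642H. At chr2:98662794 they were 98.31% and 98.53%, 98.45% and 98.49%, and 98.05% and 98.13% in the same order. At chr2:98666262 they were 98.67% and 98.77%, 98.72% and 98.557%, and 98.556% and 98.545%, so that hSTAT5B replicate 2 all but met the hSTAT5BN642H libraries.

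In total, hSTAT5BN642H was lower than WT without overlap at 5 of the 6 satellite CpGs, where 15.0% of all CpGs were, and lower than hSTAT5B without overlap at 5 of the 6, where 15.8% of all CpGs were. Both hSTAT5BN642H libraries were below all 4 others at the same 5 CpGs, against 7.41% of all CpGs, and above them at 0, against 3.49%. Among 1800 other CpGs that were read 200 or more times in every library, hSTAT5BN642H lay below at 17.1%. The 6 satellite CpGs lie in repeated sequence, with 98666262 and 98666272 only 10 bp apart, and are not independent of each other. hSTAT5B and WT overlapped at all 6 satellite CpGs, where 11.2% of all CpGs were higher and 9.72% lower in hSTAT5B without overlap. The mean over the 6 CpGs was 96.4% and 96.1% in WT, 96.1% and 95.6% in hSTAT5B, and 94.4% and 94.2% in hSTAT5BN642H. It was lower in hSTAT5BN642H than in WT by 1.92 percentage points, and this value rests on the shallow CpG 98662629: over the 4 CpGs with at least 1000 reads in every library the difference was -0.346. The mean over all 757776 CpGs was lower in hSTAT5BN642H too. It differed by -0.508 percentage points from WT and by -0.703 from hSTAT5B, without overlap of the library means. The difference from WT at the 4 deep satellite CpGs was thus no larger than that over all CpGs. None of the 6 satellite CpGs was called by limma in any comparison, with adjusted p from 0.843 to 1.0.

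**Figure D2:**
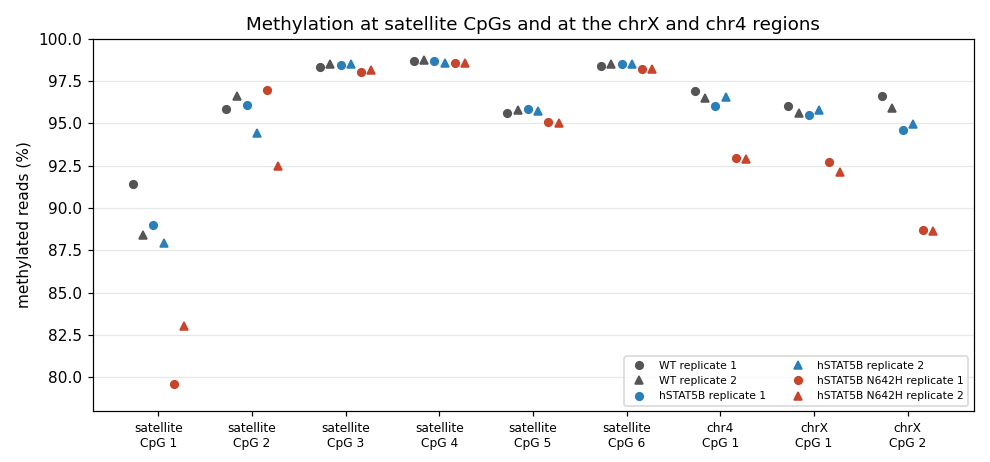
Methylation level (%, y axis from 78 to 100, not from 0) at the 6 satellite CpGs in order of position and at 3 highly methylated CpGs on chromosomes 4 and X, with 1 point per library. Both hSTAT5BN642H libraries lie below the other 4 at 5 of the 6 satellite CpGs and at all 3 others, most clearly at chrX:76598996, where they are at 88.7% and 88.6%.

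A pair of regions on chromosomes X and 4 shared sequence with each other and showed the same direction as the satellite CpGs, at a larger size than the deepest 4 of them. Both regions also aligned to the satellite stretch, below the identity limit used to group regions. The alignment was 248 bp at 66.5% identity on chromosome X and 94 bp at 75.5% on chromosome 4. Whether their direction is independent of that in the stretch was not tested. The sequences of the pair (GRCm38, plus strand) are shown because neighboring CpGs in them had opposite levels. The measured CpGs are in capitals, at chrX:76598542-76598612, chrX:76598946-76599016, and chr4:28176806-28176876.
chrX first: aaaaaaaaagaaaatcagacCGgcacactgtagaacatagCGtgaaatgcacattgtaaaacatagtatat
chrX last: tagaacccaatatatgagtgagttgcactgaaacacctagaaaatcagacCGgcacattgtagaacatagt
chr4 first: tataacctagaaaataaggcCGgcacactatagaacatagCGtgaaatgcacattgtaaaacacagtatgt
The chromosome X region, in an intron of Cldn34d (ENSMUSG00000079525.1), a member of the claudin family of tight-junction proteins, had the second largest share of reads outside the stretch, 0.119% on average. Its outer CpGs were 434 bp apart.

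At chrX:76598996 the level was 96.6% and 95.9% in WT, 94.6% and 94.9% in hSTAT5B, and 88.7% and 88.6% in hSTAT5BN642H, from 27139 to 38978 reads. The 3 genotypes did not overlap, and hSTAT5BN642H was lowest. The difference of hSTAT5BN642H from WT was -7.61 percentage points, or -1.73 on the log2 scale with an SE of 0.67, and limma did not call it (n = 2 per genotype, unadjusted p = 0.0239, adjusted p = 0.735). Across the other models the adjusted p was 0.373 among CpGs read 200 or more times in every library, 0.776 with a replicate block, 0.852 in a quasi-binomial model with dispersions of at least 1, and 0.0416 in the same model without that floor. The difference from hSTAT5B was -6.12 percentage points (limma, adjusted p = 0.816).

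At chrX:76598562 the levels were 96.1% and 95.6% in WT, 95.5% and 95.8% in hSTAT5B, and 92.7% and 92.1% in hSTAT5BN642H. On chromosome 4, at chr4:28176826, they were 96.9% and 96.5%, 96.0% and 96.6%, and 92.95% and 92.92%. At both CpGs the hSTAT5BN642H libraries were the lowest, by 3.43 and 3.76 percentage points against WT (limma, adjusted p = 0.863 and 0.826). Each has a partner 20 bases along in the printed sequence, where almost all reads were counted as unmethylated. The level was 0.23% to 0.46% at chrX:76598582 and 1.63% to 2.33% at chr4:28176846. Whether copies without a CG at that place supplied such reads was not tested. Read numbers at both CpGs of a pair were close, with 10890 and 10749 in WT replicate 1 on chromosome X.

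The largest group outside the stretch was a copy of the rRNA gene on chromosome 17, from 39843014 to 39848709, with 218 of the CpGs, and 3 CpGs in Gnb1l on chromosome 16 aligned to it. On chromosome 17 the annotation places the noncoding genes Gm26917 (ENSMUSG00000097971.3, 170 CpGs) and Gm42418 there, and an rRNA entry, CT010467.1 (ENSMUSG00000106106.2), on the other strand. The chromosome 17 region took the largest share of reads outside the stretch, 0.931% on average. The window chr17:39846104-39846164 (plus strand) around one of its CpGs is shown to make its CpG density visible, with every measured CpG in capitals.
chr17:39846134: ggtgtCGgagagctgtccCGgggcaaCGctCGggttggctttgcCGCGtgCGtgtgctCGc

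At this CpG the level was 23.6% and 22.8% in WT, 47.3% and 39.4% in hSTAT5B, and 25.5% and 32.7% in hSTAT5BN642H, the largest nonoverlapping difference of hSTAT5B over WT among the 471, 20.2 percentage points (limma, n = 2 per genotype, adjusted p = 1.0). Its neighbors chr17:39846130 and chr17:39846162 followed, with 19.0 and 19.8. At chr17:39844890 the level was 27.3% and 22.5% in WT, 51.95% and 35.1% in hSTAT5B, and 20% and 30.7% in hSTAT5BN642H. At chr17:39844859 it was 30.9% and 27.5%, 56.3% and 38.2%, and 24.5% and 34.98%. The differences of hSTAT5BN642H from hSTAT5B were -18.2 and -17.5 percentage points (limma, n = 2 per genotype, adjusted p = 0.830 and 0.843), and without hSTAT5B replicate 1 they were -9.73 and -8.49.

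Over the 221 CpGs of the rRNA gene copy the mean level was intermediate, and the libraries of each transgenic genotype were far apart. It was 25.9% and 25.1% in WT, 43.8% and 28.9% in hSTAT5B, and 21.8% and 30.3% in hSTAT5BN642H. hSTAT5B replicate 1 was the highest library at 221 of the 221 CpGs, and hSTAT5BN642H replicate 1 was the lowest at 176 of them. WT replicates differed little. At the deepest of these CpGs, chr17:39843873 in an exon of Gm26917, the level was 20.8% and 20.7% in WT, 39.9% and 23.2% in hSTAT5B, and 17.9% and 25.9% in hSTAT5BN642H, from 5006 to 7506 reads.

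hSTAT5B was higher than WT by 10.9 percentage points over the rRNA gene copy (36.4% ± 10.6 against 25.5% ± 0.518, SD, n = 2 each), a difference close to the spread between the hSTAT5B libraries. Without hSTAT5B replicate 1 it was 3.39, and without replicate 2 it was 18.3. hSTAT5B was higher without overlap at 166 of the 221 CpGs, where 11.2% of all CpGs were, and 204 differed by at least 5 percentage points, where 28.2% of all CpGs did. hSTAT5BN642H was at 26.0% ± 6.07, and its difference from WT changed sign with the library left out, from -3.74 without replicate 2 to 4.84 without replicate 1. limma called none of these CpGs (adjusted p from 0.814 to 1.0 over the 3 comparisons, n = 2 per genotype).

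Along the gene copy, hSTAT5B replicate 1 was the highest library in every bin of 500 bp, while the order of the others changed. The mean over all libraries was between 24.8% and 32.6% in these bins, except from 3500 to 3999 bp after the first CpG, where 3 CpGs averaged 16.3%. In that bin hSTAT5B replicate 1 was at 29.1% and the other libraries were between 11.1% and 15.6%. In Gm26917 the library means ran from 22.1% to 44.5%, and where CT010467.1 and Gm42418 overlap they ran from 20.2% to 41.6%, with hSTAT5BN642H replicate 1 lowest and hSTAT5B replicate 1 highest in both. The overlapping genes share these CpGs, so a level cannot be assigned to one gene or the other.

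**Figure D3:**
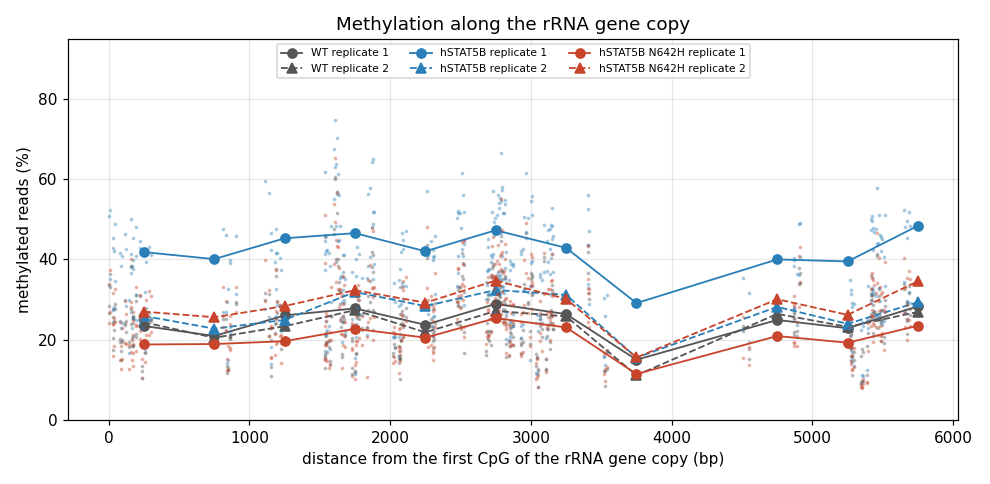
Methylation level (%, y axis) of the 218 CpGs in the rRNA gene copy on chromosome 17 against the distance from the first of them (bp, x axis). Faint points are CpGs and connected points are means over 500 bp per library; hSTAT5B replicate 1 runs above all other libraries, and the bin of 3500 to 3999 bp, with 3 CpGs, is lowest.

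Several other groups had the same highest and lowest library, and some did not. Regions were grouped where they aligned to each other at 80% identity over at least 60 bp. A family of 11 regions on 9 chromosomes, led by chr14:104715855, had 51 CpGs with mean levels of 37.4% and 37.8% in WT, 50.4% and 40.5% in hSTAT5B, and 34.0% and 40.4% in hSTAT5BN642H. There hSTAT5B replicate 1 was highest at 51 of 51 CpGs. A region of 18 CpGs at chr11:109011698 had 23.5% and 24.0%, 39.6% and 24.7%, and 19.9% and 27.2% in the same order. A region of 12 CpGs at chr16:11144072, in an intron of Zc3h7a (ENSMUSG00000037965.14), a zinc finger gene, had 22.4% and 22.4%, 43.7% and 25.3%, and 19.7% and 26.99%. In all 3 sets hSTAT5B replicate 1 was highest and hSTAT5BN642H replicate 1 lowest, as in the rRNA gene copy. Neither region aligned to that copy at the limits used, and whether any of them belongs to a longer rRNA unit was not tested.

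A family of 5 regions led by chr5:146261146 was divided. Of its 20 CpGs, 8 lay in an intron of Cdk8, which encodes a kinase of the Mediator complex, and were at 32.6% and 31.4% in WT, 47.7% and 38.7% in hSTAT5B, and 29.7% and 34.8% in hSTAT5BN642H. At chr3:62159065, with 3 CpGs, the means were 18.5% and 18.05%, 28.8% and 21.1%, and 15.4% and 20.9%. Both showed hSTAT5B replicate 1 on top. The 5 CpGs at chr10:11492101 were at 12.9% and 11.9%, 12.7% and 11.7%, and 10.2% and 13.1%, and there hSTAT5B lay within the range of the others.

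In contrast, the mean level of 3 families hardly varied between libraries. A family of 4 regions (23 CpGs, led by chr1:13550837) was at 80.7% and 80.2% in WT, 80.8% and 80.6% in hSTAT5B, and 80.8% and 81.0% in hSTAT5BN642H. A family of 2 regions (12 CpGs, led by chr2:39532925) was between 56.0% and 57.0%, and a family of 15 regions (29 CpGs) between 65.7% and 67.6%. Levels were low in a family of 2 regions led by chr3:5860674 (11 CpGs), at 16.5% and 17.5% in WT, 17.7% and 14.9% in hSTAT5B, and 12.6% and 15.7% in hSTAT5BN642H. The 3 families with steady means were in soft-masked repeat sequence at 23 of 23, 12 of 12, and 27 of 29 CpGs, whereas 6 of 221 were in the rRNA gene copy. Only 1, 0, and 1 of their CpGs had a mean level between 20% and 80%, compared with 193 of the 221. The intermediate CpG of the family of 15, chr13:31504227, was at 27.4% and 23.7% in WT, 39.8% and 24.5% in hSTAT5B, and 23.3% and 31.0% in hSTAT5BN642H. Whether the steady means go with the level or with the sequence was not tested. The plot of mean levels by sequence group sets the groups side by side.

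**Figure D4:**
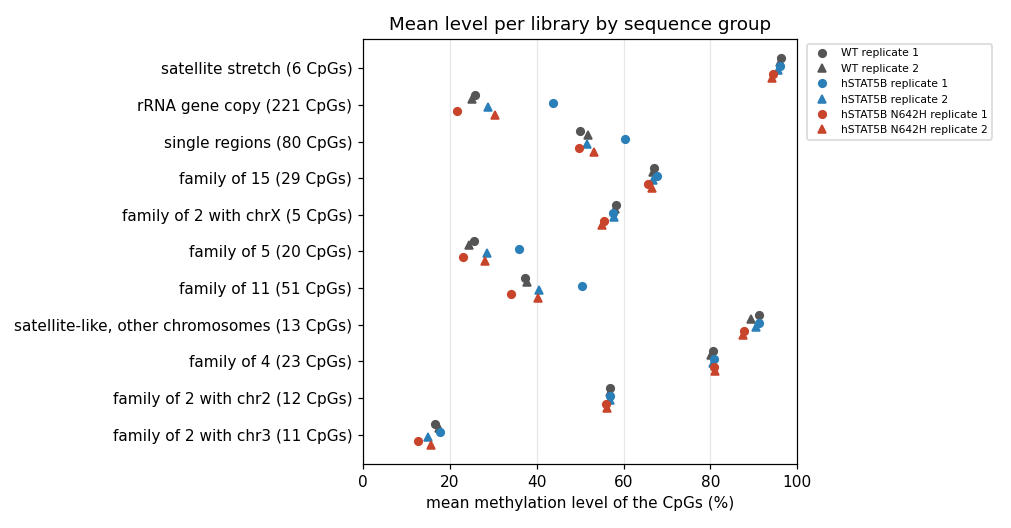
Mean methylation level (%, x axis) of the CpGs of each sequence group (y axis), with 1 point per library. hSTAT5B replicate 1 lies apart in the rRNA gene copy (43.8%) and the family of 11 (50.4%), whereas in the family of 4 all libraries lie between 80.2% and 81.0%.

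The family of 15 regions is spread over 11 chromosomes, and some of its sequences are shown because neighboring CpGs differed almost completely in level. Capitals mark the measured CpGs at chr1:10167486-10167545, chr11:85231207-85231266, chr9:64163516-64163575, and chr8:109932784-109932862 (GRCm38, plus strand).
chr1 largest family: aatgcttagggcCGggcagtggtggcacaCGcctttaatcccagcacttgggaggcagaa
chr11 largest family: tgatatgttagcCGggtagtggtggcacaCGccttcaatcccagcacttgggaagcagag
chr9 largest family: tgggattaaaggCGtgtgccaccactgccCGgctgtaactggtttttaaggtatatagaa
chr8 largest family: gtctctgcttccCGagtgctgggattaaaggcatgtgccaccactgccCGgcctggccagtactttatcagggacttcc
Of its 29 CpGs, 20 had a mean level over 80% and 8 a mean level under 2%. The CpG was in CCGG at 14 of them, of which 13 were over 80% and 0 under 2%. The place of the first measured CpG in the chr9 sequence holds ca in the chr8 sequence. Whether reads from copies without a CG were counted as unmethylated at the low CpGs was not tested.

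At chr1:10167498, in an intron of Arfgef1, a regulator of vesicle traffic, the CpG in CCGG was at 94.5% and 95.3% in WT, 95.6% and 94.5% in hSTAT5B, and 92.8% and 93.9% in hSTAT5BN642H. At chr1:10167515, 17 bases along, the level was 0.09% to 0.19%, from 3528 to 6652 reads. The same contrast was found in an intron of Zwilch, which encodes a kinetochore protein, with 93.4% to 95.5% at chr9:64163545 and 0.10% to 0.29% at chr9:64163528. In an intron of Phlpp2, a phosphatase gene, chr8:109932832 was at 93.3% to 95.5% and chr8:109932796 at 0.07% to 0.45%. The regions that took the largest summed shares of reads in the family, with more CpGs than most, were in introns of Zfp710, Nhs, and Unc13d, and chrX:162122711 in Nhs was at 0.00% to 0.03%.

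Read depth repeated itself between chromosomes in this family. The CpGs chr1:10167498, chr10:81444824, chr11:85231219, chr8:109932832, and chr9:64163545, on 5 chromosomes, had 5245 to 5417 reads in WT replicate 1, 4296 to 4422 in hSTAT5B replicate 2, and 3340 to 3477 in hSTAT5BN642H replicate 1. In no library was the highest of the 5 more than 4.34% above the lowest, although the libraries themselves differed widely. Another 4 CpGs on 4 chromosomes, chr11:116070853, chr5:142864174, chr7:80031056, and chrX:162122679, were within 5.83% of each other in every library, at 4063 to 4127 reads in WT replicate 1. These sets were noticed after the values were seen. Levels within the first set ran from 92.5% to 96.0% over all libraries.

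hSTAT5BN642H was below all 4 other libraries at 13 of the 29 CpGs of the family, against 7.41% of all CpGs, and above them at 0, against 3.49%. Among the 1800 other CpGs read 200 or more times in every library, it lay below at 17.1%. Since reads were nearly equal at sets of these CpGs on different chromosomes, the 29 may not be independent of each other. The sizes were small: against WT the median over the 29 CpGs was -0.532 percentage points, where it was 0.0 over all CpGs. The replicates of hSTAT5BN642H were 65.7% and 66.5% on average, and replicate 1 had the smallest share of reads on the family, 0.113% against 0.208% to 0.262% in the other libraries. Whether read number and level are linked here was not tested.

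Satellite-like sequence on other chromosomes differed far more in depth than the chromosome 2 stretch. The group comprised 13 CpGs in 5 regions that aligned to the stretch over 67 to 68 bp, at 85.1% to 97.1% identity, near Gm21738 on chromosome 14, in Gm26870 on chromosome 9, and in an intron of Cdk5rap2, a centrosome gene, on chromosome 4. It took 0.209% of reads in WT replicate 1 and 0.0451% in WT replicate 2, 0.0294% and 0.0399% in hSTAT5B, and 0.0122% and 0.0190% in hSTAT5BN642H. The highest share was 17.1 times the lowest, compared with 1.48 times for the chromosome 2 stretch, and WT replicate 1 stood above all others. A CCGG lay within 60 bp at 0 of the 13 CpGs, compared with 4 of the 6 in the stretch and 99.97% of all CpGs. The group and the stretch are therefore not alike in how MspI fragments cover them, and the part of this in depth and level was not tested. The same library was the highest and hSTAT5BN642H replicate 1 the lowest in each of the 5 regions, near Zfp873 on chromosome 10, and at chrY:144883.

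The levels in this group were 91.2% and 89.4% in WT, 91.1% and 90.6% in hSTAT5B, and 87.9% and 87.6% in hSTAT5BN642H, and the hSTAT5BN642H libraries were the lowest. At chr14:19417653 the levels were 95.8% and 89.5% in WT, 86.8% and 82.8% in hSTAT5B, and 77.2% and 76.8% in hSTAT5BN642H. The difference of hSTAT5BN642H from WT, -15.6 percentage points, was the largest of the group (limma, n = 2 per genotype, unadjusted p = 0.0153, adjusted p = 0.722), and the reads fell from 2152 in WT replicate 1 to 123 in hSTAT5BN642H replicate 1. At chr14:19417687, 34 bases along, they were 77.8% and 72.1%, 81.7% and 83.5%, and 56.9% and 64.0%. Here hSTAT5BN642H was 22.2 percentage points below hSTAT5B (limma, n = 2 per genotype, adjusted p = 0.778). WT replicate 1 had both the most reads and the highest level at chr14:19417653, and the part of depth in the difference was not tested. Both chr14:19417653 and chr14:19417687 met the read depth rule through WT replicate 1 alone.

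In the gene Vav1 itself, depth separated the transgenic libraries from WT. The 3 CpGs at chr17:57290696, chr17:57290712, and chr17:57290717 lie in an intron of Vav1 (ENSMUSG00000034116.17), which encodes a signaling protein of blood cells and whose promoter drives the transgenes. The sequence chr17:57290666-57290747 (GRCm38, plus strand) is shown because its depth follows the genotype, with the CpGs in capitals.
region of 3 on chr17: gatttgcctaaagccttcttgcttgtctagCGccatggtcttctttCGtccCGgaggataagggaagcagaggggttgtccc
At chr17:57290696 there were 67 and 91 reads in WT, 1300 and 1286 in hSTAT5B, and 1557 and 1201 in hSTAT5BN642H. Per 1000000 reads of the library, the median over the 3 CpGs was 1.54 and 1.68 in WT, 27.4 and 29.7 in hSTAT5B, and 23.2 and 23.7 in hSTAT5BN642H, so that every transgenic library was above both WT libraries. The levels at this CpG were 4.48% and 5.50% in WT, 13.2% and 10.2% in hSTAT5B, and 5.84% and 8.16% in hSTAT5BN642H. All were low, and hSTAT5BN642H overlapped neither group while lying between them. The WT levels rest on only 67 and 91 reads, and no interval for counting error was computed for them. Which Vav1 sequence the vector carries is not given in the sources used here, and reads from the transgene and from the gene cannot be told apart. Vav1 was singled out after its values were seen. Its CpGs met the read depth rule through the transgenic libraries alone, so the difference in depth is a description and was not tested.

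Mid1, an E3 ubiquitin ligase gene that spans the boundary of the pseudoautosomal region in mice, was the next example of uneven depth. At chrX:169979068 there were 131 and 1995 reads in WT, 1167 and 239 in hSTAT5B, and 130 and 158 in hSTAT5BN642H. The level was 76.3% and 75.8% in WT, 63.2% and 42.3% in hSTAT5B, and 54.6% and 53.8% in hSTAT5BN642H. Both transgenic genotypes were below WT without overlap, by 23.3 percentage points in hSTAT5B and 21.9 in hSTAT5BN642H (limma, n = 2 per genotype, adjusted p = 0.9993 and 0.794). The former difference was -12.8 without hSTAT5B replicate 2. At chrX:169979078, 10 bases along, the level was 69.8% and 66.2%, 55.3% and 30.3%, and 59.4% and 43.4% in the same order. Depth was highest in WT replicate 2 and hSTAT5B replicate 1, and it was so too at the 3 CpGs of chrY:90742355 near the related pseudogene Mid1-ps1. The plot of scaled reads in variable regions shows both patterns.

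**Figure D5:**
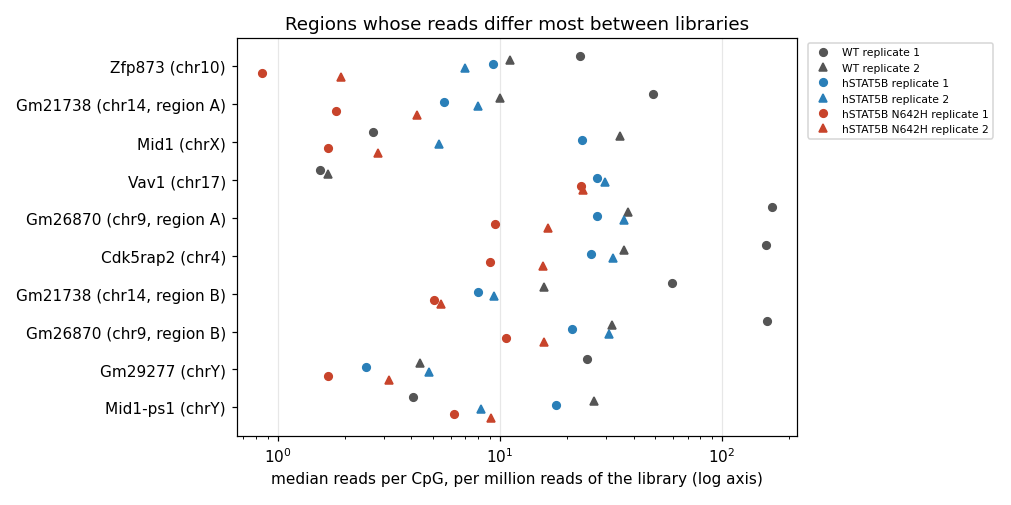
Median reads per CpG per 1000000 reads of the library (log x axis) in the 10 regions whose depth varied most (y axis), with 1 point per library. In Vav1 the WT libraries are at 1.54 and 1.68 and the transgenic ones between 23.2 and 29.7; in the satellite-like regions WT replicate 1 is the highest library.

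Among the remaining regions, that of 18 CpGs at chr11:3193348 overlapped Sfi1 (ENSMUSG00000023764.18), which encodes a centrosome protein, and Drg1. It was mostly methylated, with means of 89.9% and 92.9% in WT, 94.99% and 93.8% in hSTAT5B, and 94.4% and 93.7% in hSTAT5BN642H. WT replicate 1 was lowest. At chr11:3193385 the levels were 64.4% and 69.6%, 77.9% and 72.8%, and 76.5% and 71.7%, the largest nonoverlapping rise in hSTAT5BN642H over WT, 7.14 percentage points (limma, n = 2 per genotype, adjusted p = 0.935), which was 4.54 without WT replicate 1. At chr15:75086686, near Gm28502, the level was 77.0% and 74.3% in WT, 70.5% and 64.0% in hSTAT5B, and 57.9% and 63.2% in hSTAT5BN642H. At chr2:22588861, in the pseudogene Gm13340 (ENSMUSG00000083563.1), it was 6.42% and 4.13%, 5.08% and 5.36%, and 11.3% and 9.01%. The libraries of hSTAT5BN642H were lowest at the former and highest at the latter. At chr17:36231275, near Gm18604, the level was 14.9% and 15.2% in WT, 26.3% and 21.7% in hSTAT5B, and 19.9% and 21.5% in hSTAT5BN642H, and WT was lowest. Small nonoverlapping rises of hSTAT5BN642H over hSTAT5B were 1.95 percentage points at chr11:3193442 and 1.77 at chr13:113651870. Opposite levels next to each other were found again at chr12:19245175 with 93.9% to 95.1% and chr12:19245221, 46 bp apart with 1 CpG between them, with 7.18% to 8.95%.

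Intermediate levels were common among the very deeply covered CpGs. The 465 CpGs outside the stretch had a mean level of 39.3% and 39.2% in WT, 51.6% and 41.4% in hSTAT5B, and 36.5% and 42.2% in hSTAT5BN642H. Of all 471, 304 (64.5%) had a mean level between 20% and 80%, compared with 10.3% of all 757776 CpGs, and 49 (10.4%) were over 95%, compared with 40.98%. Many of the former lie in the rRNA gene copy, which holds 193 of the 304. Of the 471, 24.8% were in CCGG and 20.8% in soft-masked sequence, compared with 49.8% and 33.2% of all CpGs. The 41 bases around the CpG occurred more than once in the genome for 22.3% of them and for 26.8% of 5049 evenly spaced other CpGs. Most were thus single in the reference by exact match, a count that misses diverged copies. Of the 465 CpGs outside the stretch, 385 lay in groups of 2 or more regions that aligned to each other or to the stretch. The rRNA gene copy made up 221 of the 385. Its 2 regions were joined by an alignment of 140 bp, so most of its CpGs are not shown to lie in shared sequence. At the threshold, the last CpGs included were chr17:39844551 and chr17:39844553, with 1001 reads at most, and the first left out were chr12:20233347 and chr17:39844593, with 996.

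Replicates of the transgenic genotypes differed widely at these CpGs. The median difference between the 2 libraries was 1.42 percentage points in WT, 11.6 in hSTAT5B, and 6.34 in hSTAT5BN642H. It was over 2 counting errors at 25.9%, 75.4%, and 73.0% of the CpGs, and at 10.5%, 10.2%, and 10.7% of all CpGs. The median counting error was 1.34 to 1.61 percentage points at these CpGs and 5.26 to 6.04 over all CpGs. The very deeply covered CpGs therefore pass 2 counting errors at smaller differences. Replicates were at least 5 percentage points apart at 36, 325, and 277 of the 471 (7.64%, 69.0%, and 58.8%), compared with 37.3%, 37.05%, and 36.6% of all CpGs.

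Between hSTAT5B and WT, the counts leaned to one side. hSTAT5B was higher without overlap at 273 of 471 CpGs and lower at 25, compared with 11.2% and 9.72% of all CpGs. Genotype means lay 5 or more percentage points apart at 302 CpGs (64.1%), compared with 28.2% of all, and at 85 without hSTAT5B replicate 1. Among the 1800 other CpGs read 200 or more times in every library, 21.6% were higher without overlap, 14.6% lower, and 8.94% as far apart. Outside the stretch the mean difference was 7.23 percentage points, 2.13 without hSTAT5B replicate 1 and 12.3 without replicate 2. The rRNA gene copy supplied 166 of the 273 CpGs, which are parts of 1 sequence and not independent of each other.

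hSTAT5BN642H and WT were closer: 38 CpGs were higher without overlap, where 10.2% of all CpGs were, and 69 lower, where 15.0% were. A distance of 5 or more percentage points was seen at 25 CpGs (5.31%), compared with 29.3% of all, and at 161 without hSTAT5BN642H replicate 1, at 107 without hSTAT5BN642H replicate 2, and at 47 without WT replicate 1. Among the 1800 other deep CpGs, 16.1% were higher without overlap, 26.0% lower, and 9.72% at that distance. Outside the stretch the mean difference was 0.132, and it ran from -2.73 to 2.99 with a library left out. Among the 98 soft-masked CpGs outside the stretch, 39 were lower without overlap and 12 higher. In the comparison of hSTAT5BN642H with hSTAT5B, 9 CpGs were higher without overlap and 163 lower, where 9.4% and 15.8% of all CpGs were, and 318 (67.5%) were 5 or more percentage points apart, where 29.5% of all were. Of the 1800 other deep CpGs, 12.7% were higher, 30.7% lower, and 14.1% that far apart. The count of 318 was 79 without hSTAT5B replicate 1 and 194 without hSTAT5BN642H replicate 1. The 3 comparisons share libraries.

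limma, fitted over all 757776 CpGs with Benjamini-Hochberg adjustment at 0.05, called 0 of the 471 for hSTAT5BN642H against WT, hSTAT5B against WT, and hSTAT5BN642H against hSTAT5B, where it called 0.0% of all CpGs in each. The unadjusted p was under 0.05 at 2, 0, and 2 of the 471, where it was so at 6.48%, 5.0%, and 6.32% of all. The quasi-binomial model without a floor called 1, 0, and 1, in both cases chrX:76598996 and lower in hSTAT5BN642H, where it called 0.644%, 0.0%, and 0.559% of all CpGs, and with dispersions of at least 1 it called 0 in each. With the replicates' reads added together, which leaves out the spread between libraries, Fisher's exact test called 94, 330, and 346 of the 471, where it called 1.37%, 0.326%, and 1.09% of all CpGs. The SE that limma gave these CpGs was 0.669 to 1.04 on the log2 scale, since they share an estimate of the spread with CpGs of few reads. A count of 0 calls does not show that levels were equal.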

How the data were processed

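RRBS data of 6 libraries were used. Per the paper's methods, the authors trimmed reads with Trimmomatic, aligned them to GRCm38 (mm10) with BSMAP in its RRBS mode, and computed levels with custom Python scripts. For every CpG, the deposited values are counts of methylated and of all reads, not normalized, and a score from 0 to 1000 that the authors derived from these counts, used here only to check them. Positions are printed 1-based.

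The CpGs and sequence groups were chosen with earlier results of these data known, and the limits of the groups (BLAST+ 2.17.0+, 80% identity over 60 bp, flanks of 100 bp, single linkage) after seeing the data. A level is the methylated share of reads. A set's level is the unweighted mean over its CpGs. Named CpGs are the 5 satellite CpGs with most reads, the 12 regions with the largest share elsewhere, any CpG called by limma, the 3 largest nonoverlapping differences each way per comparison, and the CpGs next to the threshold. Others are named as examples of their group and were chosen after their values were seen.

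limma 3.58.1 (R 4.3.3) was run on log2((methylated + 1)/(unmethylated + 1)) with all 6 libraries, 2-sided, over every CpG with at least 10 reads in all 6. The code was tested on simulated data. Alternatives were an offset of 0.5, a mean-variance trend, minimums of 5, 20, and 200 reads, quasi-binomial models, Fisher's exact test on pooled reads, a replicate block, only the 2 genotypes compared, and each library left out. Python 3.11.15 was used for the rest, with Wilson intervals at 95% that cover counting error only.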

Additional observations from a re-analysis of the deposited data

How the results depend on the processing

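The number of very deeply covered CpGs was 920 with 500 reads and 228 with 2000 reads in at least 1 library, and 218 with 1000 reads in every library. Their mean share of reads was 4.09% without the deepest CpG, and 18.03% of the reads on CpGs read 10 or more times in every library. For the satellite CpGs, pooled reads gave differences of -0.291 (hSTAT5BN642H minus WT), 0.066 (hSTAT5B minus WT), and -0.357 percentage points (hSTAT5BN642H minus hSTAT5B), CpGs with 1000 reads in every library gave -0.346, 0.024, and -0.371, and leaving out the deepest CpG gave -2.25 for the first. Leaving out a library gave -2.05 to -1.79, -0.638 to -0.149, and -1.77 to -1.28. For the CpGs outside the stretch it gave -2.73 to 2.99, 2.13 to 12.3, and -12.2 to -2.00, while soft-masked CpGs alone gave 1.40 for hSTAT5B minus WT and pooled reads -2.36 for hSTAT5BN642H minus WT. CpGs at least 10 percentage points apart numbered 8, 178, and 147 of the 471. Over all 757776 CpGs, those at least 10 apart numbered 85168, 78255, and 84860. With a library left out, very deeply covered CpGs at least 5 apart numbered 33 to 161, 85 to 340, and 79 to 336. Calls were 0 to 0 in each comparison with a library left out, and 0 under every other limma setting. The quasi-binomial model without a floor called 1 CpG in each comparison of hSTAT5BN642H and 0 for hSTAT5B minus WT. Fisher's exact test on pooled reads, which leaves out the spread between libraries, called 94, 330, and 346 CpGs, where it called 1.37%, 0.326%, and 1.09% of all. The minimum of 200 reads and the floor on dispersions were chosen after seeing the data. With the replicate number as a block, 0 CpGs were called; same-numbered libraries did not deviate together (r from -0.0404 to 0.0153 across CpGs), so the numbers do not pair them. Of 78 named differences, 16 changed sign with a library left out. Leaving out mitochondrial CpGs gave no value, since 0 were in the files used.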
